A study of Mus musculus with 6 samples.

Results

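The receptors for interleukin-4 (IL-4) and interleukin-13 (IL-13) were followed across the cell types of mouse skin, together with the kinase, the transcription factor and the feedback inhibitors that act directly under them. The set was chosen by gene name, but with earlier results of these data known, as were the gene lists used further on. It holds Il4ra, Il13ra1, Il13ra2, Il2rg, Stat6, Jak1, Socs1 and Cish, all 8 of which were found among the 32285 genes of the count tables. IL-4 is bound by the type I receptor, in which the IL-4 receptor alpha chain (Il4ra) pairs with the common gamma chain (Il2rg). IL-4 and IL-13 are both bound by the type II receptor, in which Il4ra pairs with IL-13 receptor alpha 1 (Il13ra1), while IL-13 receptor alpha 2 (Il13ra2) binds IL-13 tightly and is regarded mainly as a decoy. Janus kinases such as JAK1 phosphorylate STAT6 when either receptor is engaged, and SOCS1 and CISH are inhibitors that cytokine signals of this family induce. In skin, both cytokines are linked to allergic inflammation and to weakening of the epidermal barrier.

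EC-OVA skin (3 libraries) was compared with EC-SAL skin (3 libraries), and the labels give EC-SAL as the control. In this field EC-OVA stands for ovalbumin and EC-SAL for saline put on the skin, although the labels hold only the abbreviations. Both groups were Balb/c mice with 10 days of epicutaneous treatment, and the skin was taken 2 days later, digested with enzymes and run on the 10x 3′ platform. The labels call the skin of all 6 libraries sensitized, and only the treatment label and the title separate the groups. They also give the cell type as CD4, but the libraries held the cells of whole skin. Nothing says that the replicates were separate mice, so p-values measure the spread between these libraries.

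Of 38206 barcodes, 24432 cells were kept, 3405 to 3897 per EC-OVA library and 4108 to 4994 per EC-SAL library. Summed unique molecular identifiers (UMIs, each standing for 1 captured transcript) ran between 21743490 and 22972651 per EC-OVA library and between 25007064 and 28049562 per EC-SAL library. Library pairs shared 33 to 87 barcodes. EC-OVA replicate 2 stood further from the other EC-OVA libraries (mean chi-square per gene 26.8 and 22.1) than those did from each other (5.69). EC-SAL replicate 1 likewise stood apart (11.1 and 13.7) from the other EC-SAL libraries (4.69 between them). The cells formed 32 clusters, named from marker lists, and the 14 classes with at least 10 cells in every library were used for tests: keratinocytes, hair matrix and inner root sheath, sebocytes, fibroblasts, chondrocytes, tendon cells, vascular and lymphatic endothelium, pericytes with smooth muscle, Schwann cells, lymphoid cells, macrophages with monocytes, dendritic cells with Langerhans cells, and an unnamed cluster led by Tagln, Gjb2 and Lhx2. All names are "like" calls from markers. Levels are given as CPM, counts per 1000000 of the UMIs summed over the cells of a class in 1 library. Because 3′ tags do not scale between genes, levels are compared between classes and groups and not between genes.

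Il4ra, the chain that both receptors share (chr7:125552120-125579474, plus strand, build mm10), was found in all 14 classes. Over the 6 libraries it was highest in lymphoid cells, at 89.8 ± 21.9 CPM (SD, n = 6), followed by macrophages with monocytes at 77.2 ± 14.5 CPM, vascular endothelium at 69.5 ± 12.1 CPM and dendritic with Langerhans cells at 46.2 ± 13.9 CPM. Vascular endothelium was above dendritic cells in 6 of 6 libraries, while lymphoid cells were above macrophages in 5 and macrophages above vascular endothelium in 4. Sebocytes, pericytes, lymphatic endothelium, keratinocytes, tendon cells, Schwann cells, fibroblasts and the unnamed cluster lay between 33.2 and 21.7 CPM, and neighbours in that order overlapped. Hair matrix and inner root sheath cells were lowest, at 2.73 ± 0.885 CPM from 16 UMIs in 706 cells. In the order of Il4ra, only the step between chondrocytes (17.9 CPM) and hair matrix cells had no overlap between libraries.

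Il13ra1, which completes the type II receptor (chrX:36112110-36171259, plus strand), was ordered differently. It was highest in keratinocytes, at 93.7 ± 5.41 CPM, then in chondrocytes at 88.7 ± 5.01 CPM, pericytes at 82.0 ± 9.38 CPM and vascular endothelium at 78.6 ± 12.9 CPM. Lymphoid cells, the highest for Il4ra, were near the bottom for Il13ra1, with 4.86 ± 7.998 CPM. A UMI of it was found in 4 of 416 lymphoid cells (0.962%, exact 95% interval 0.263 to 2.44%), against 3351 of 6654 keratinocytes (50.4%, 49.2 to 51.6%). Schwann cells had 3.49 ± 4.54 CPM of Il13ra1. Each class overlapped with the next in this order.

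Il2rg, the common gamma chain that also serves the receptors of several other interleukins (chrX:101264378-101268255, minus strand), was highest in lymphoid cells, at 265 ± 23.4 CPM, and no library of any other class reached that range. Vascular endothelium was second, at 47.5 ± 12.5 CPM, above dendritic cells at 32.0 ± 9.66 CPM in 4 of 6 libraries. Macrophages had 28.1 ± 12.9 CPM, lymphatic endothelium 23.6 ± 6.05 CPM and pericytes 18.1 ± 9.91 CPM. Below these a step without overlap led to keratinocytes, at 3.07 ± 1.16 CPM. No UMI of Il2rg was seen in 1662 chondrocytes, 448 sebocytes or 615 Schwann cells. In chondrocytes this allows up to 0.222% of cells with a UMI (exact 95% bound) at median depths of 4451 UMIs per cell in EC-OVA and 3701 in EC-SAL. In vascular endothelium 277 of 1513 cells (18.3%) held a UMI, at median depths of 5071.5 UMIs in EC-OVA and 3409 in EC-SAL.

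Il13ra2, the decoy (chrX:147383476-147429192, minus strand), was read in few classes. It was highest in sebocytes, at 19.1 ± 14.004 CPM, and in pericytes with smooth muscle, at 14.8 ± 13.5 CPM, with keratinocytes at 5.94 ± 3.02 CPM and fibroblasts at 4.87 ± 1.99 CPM. The ranges of these neighbours overlapped. The other 10 classes were at or under 0.868 CPM, and no UMI was seen in vascular endothelium (0 of 1513 cells, which allows up to 0.244%), lymphoid cells (0 of 416) or dendritic with Langerhans cells (0 of 729).

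Jak1, the kinase bound to these receptors (chr4:101152367-101265282, minus strand), was read in every class. It was highest in vascular endothelium, at 360 ± 34.9 CPM, with no overlap with pericytes (215 ± 20.7 CPM), and lowest in hair matrix cells, at 31.2 ± 9.61 CPM. Stat6, the transcription factor that enters the nucleus after phosphorylation (chr10:127642986-127660957, plus strand), was highest in lymphoid cells, at 53.3 ± 26.9 CPM, and lowest in hair matrix cells, at 6.95 ± 1.53 CPM, with each class overlapping the next. Socs1, which inhibits Janus kinases (chr16:10782240-10785536, minus strand), was highest in chondrocytes, at 217 ± 21.8 CPM, and lymphoid cells, at 206 ± 68.6 CPM. Tendon cells followed at 132 ± 20.7 CPM, without overlap with fibroblasts at 83.2 ± 8.97 CPM, and lymphatic endothelium was lowest at 19.0 ± 7.74 CPM. The gene models of Il4ra, Stat6, Jak1 and Cish overlap another gene of the count tables (Gm44876, Nab2, Raver2 and Gm17041), and how the counting assigned shared reads is not given in the sources used here.

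Cish, the SOCS family member best known as a STAT5 target (chr9:107296026-107302784, plus strand), was highest in lymphoid cells, at 189 ± 45.4 CPM, and in the unnamed cluster, at 152 ± 18.7 CPM. No library of the unnamed cluster overlapped with lymphatic endothelium, which came next at 84.1 ± 12.5 CPM, and keratinocytes had 83.5 ± 3.89 CPM. Its start region is shown because Cish was the only member with a match to the pair of half-sites that STAT factors bind. In the 250 bases before to 50 bases after each RefSeq start (build GRCm38.p6), TTCNNNGAA was searched on both strands, on which it reads alike, as were the same half-sites 4 bases apart, the spacing preferred by STAT6. The stretch chr9:107296654-107296683 (plus strand, capitals mark TTCNNNGAA) holds 2 copies, at bases 1 to 20 counted from the RefSeq start.
Cish: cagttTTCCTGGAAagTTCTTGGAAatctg
Of 32851 promoters in the table, 8.30% held TTCNNNGAA, 0.457% held it at least 2 times and 6.95% held the wider spacing. Neither spelling occurred in this window of the other 7 members.

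**Figure D1:**
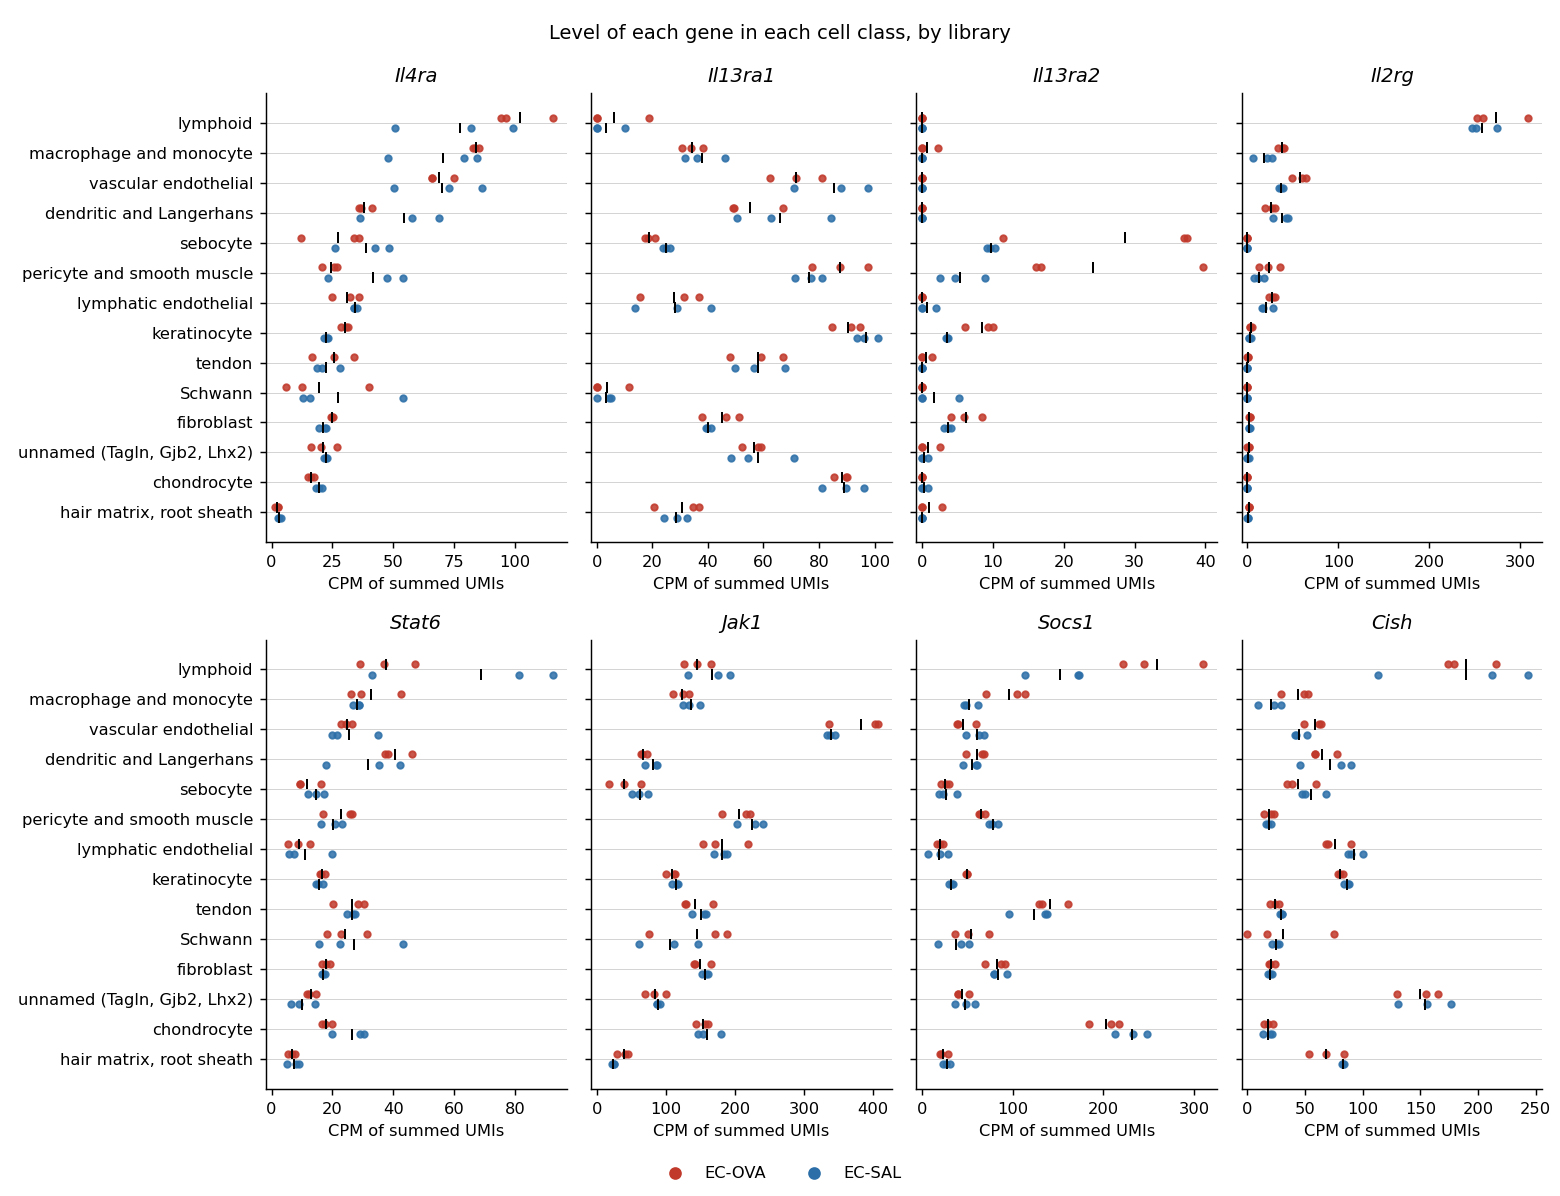
Level of each member in 14 cell classes, as CPM of summed UMIs on linear axes that differ between genes. Each point is 1 library (red EC-OVA above, blue EC-SAL below), and black ticks are group means. Il2rg sits apart in lymphoid cells (265 CPM), while Il13ra1 is highest in keratinocytes (93.7 CPM) and close to 0 in lymphoid cells (4.86 CPM).

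Single cells were then counted for both chains of each receptor. A UMI of Il4ra and a UMI of Il2rg were found together in 37 of 416 lymphoid cells (8.89%, exact 95% interval 6.34 to 12.1%) and 102 of 1513 vascular endothelial cells (6.74%, 5.53 to 8.12%). Macrophages with monocytes had 11 such cells of 1276, dendritic with Langerhans cells 12 of 729 and keratinocytes 21 of 6654 (0.316%). Chondrocytes, sebocytes, Schwann cells, tendon cells, hair matrix cells and the unnamed cluster had none.

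Il4ra and Il13ra1 were found together in 651 of 6654 keratinocytes (9.78%, 9.08 to 10.52%), 144 of 1513 vascular endothelial cells (9.52%, 8.09 to 11.1%), 35 of 448 sebocytes (7.81%, 5.50 to 10.7%) and 189 of 5704 fibroblasts (3.31%, 2.86 to 3.81%). Only 1 of 416 lymphoid cells held both. These intervals cover counting error only, and shares rise with depth: median UMIs per cell were 8343 in EC-OVA and 7565 in EC-SAL keratinocytes, against 1913.5 and 2054.5 in lymphoid cells of the same groups. At these unequal depths, vascular endothelium was the one class with over 5% of its cells holding each pair. Its median was 4148 UMIs per cell, against 1324.5 in macrophages with monocytes. The classes are not compared at equal depth here, so this order is not a trait of the cells apart from depth.

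Between the groups, the share of keratinocytes with Il4ra and Il13ra1 was 12.9, 12.1 and 13.01% in EC-OVA libraries, against 9.10, 7.70 and 8.93% in EC-SAL libraries. The share of fibroblasts with that pair averaged 4.63 ± 0.879% in EC-OVA and 1.80 ± 0.361% in EC-SAL (SD, n = 3 each), and the share of vascular endothelial cells with Il4ra and Il2rg averaged 9.13 ± 2.00% in EC-OVA and 4.31 ± 1.04% in EC-SAL. None of these 3 comparisons, chosen from all classes after their values were seen, overlapped, and each had an exact two-sided permutation p of 0.1, the smallest that 3 against 3 libraries can give. EC-OVA cells were also deeper in these classes, with medians of 5865 UMIs in EC-OVA and 4550.5 in EC-SAL fibroblasts. After each cell was thinned to 1000 UMIs, the shares were 0.207% in EC-OVA and 0.280% in EC-SAL keratinocytes, 0.0716 and 0.191% in fibroblasts of the same groups, and 0.274 and 0.310% for the other pair in vascular endothelium. Each difference was then in the other direction and rested on 17, 7 and 4 cells in all, so no difference in cells holding both chains could be read at equal depth.

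**Figure D2:**
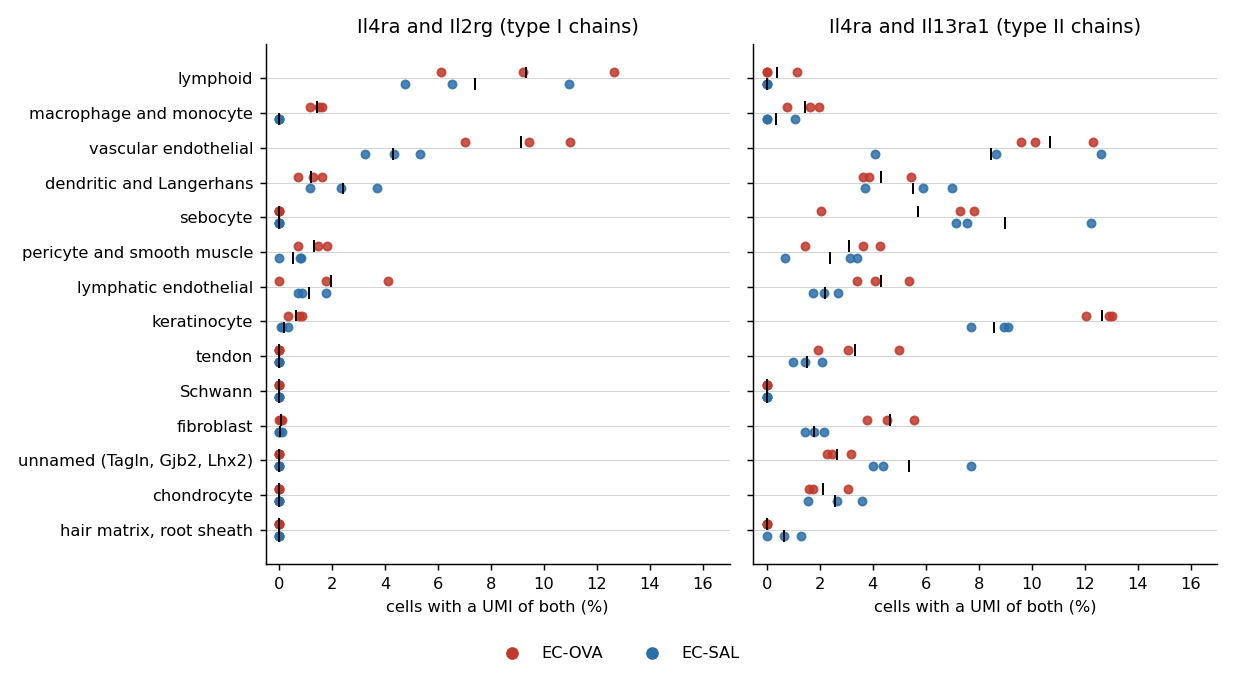
Share of cells with a UMI of both chains of the type I receptor (left) and of the type II receptor (right), in percent, by class, before thinning. Each point is 1 library (red EC-OVA above, blue EC-SAL below) and ticks are group means. Lymphoid cells and vascular endothelium lead on the left, and keratinocytes, vascular endothelium and sebocytes lead on the right.

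Across the 14 classes, the mean log2(CPM + 1) of Il4ra followed that of Stat6 (Pearson r = 0.74), Il2rg (r = 0.69) and Jak1 (r = 0.61) but not that of Il13ra1 (r = -0.11), while Il13ra1 and Il13ra2 had r = 0.14. These are descriptions over classes that share their libraries. Among 9972 genes with at least 20 CPM in a class, the patterns most like that of Il4ra were those of B2m, the light chain of MHC class I (r = 0.90), H2-T22 (r = 0.89) and Clec2d (r = 0.87). For Il13ra1 they were Tuba1c (r = 0.82), Hotairm1 (r = 0.82) and Zswim4 (r = 0.79), and for Il13ra2 Ephx3 (r = 0.84), Pla2r1 (r = 0.81) and Sort1 (r = 0.79). For Il2rg they were 9930111J21Rik2 (r = 0.96), Arpc3 (r = 0.91) and Neurl3 (r = 0.91).

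In all kept cells summed per library, 4 of the 8 members rose and 2 fell in EC-OVA relative to EC-SAL skin, beside 44.8% of all genes that passed the same test (edgeR quasi-likelihood, adjusted p under 0.05). Il2rg had 12.2, 11.8 and 11.1 CPM in EC-OVA libraries and 5.13, 6.37 and 4.76 CPM in EC-SAL libraries, a log2 fold change of 1.05 ± 0.12 (SE, edgeR adjusted p = 0.00026). Il13ra2 had 6.64, 4.14 and 6.02 CPM in EC-OVA and 2.64, 2.83 and 2.84 CPM in EC-SAL (0.95 ± 0.17, adjusted p = 0.0023). For both genes every EC-OVA library was above every EC-SAL library. Il2rg marks leukocytes among other cells, and all 10 leukocyte-defining genes rose in the same sums. Vascular endothelium held 34.0% of Il2rg UMIs in EC-OVA and 26.6% in EC-SAL, and lymphoid cells 21.3% in EC-OVA and 20.9% in EC-SAL. Socs1 rose by 0.34 ± 0.06 (adjusted p = 0.0016) and Il4ra by 0.21 ± 0.05 (adjusted p = 0.0071) on the log2 scale.

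Cish and Il13ra1 fell in the whole suspension. Cish had 52.9, 53.1 and 54.9 CPM in EC-OVA and 67.1, 69.3 and 66.0 CPM in EC-SAL (-0.39 ± 0.05, edgeR adjusted p = 0.00037), and Il13ra1 had 64.4, 57.2 and 64.6 CPM in EC-OVA and 77.1, 69.8 and 71.0 CPM in EC-SAL (-0.28 ± 0.05, adjusted p = 0.0021). Stat6 (0.08 ± 0.09, adjusted p = 0.49) and Jak1 (0.09 ± 0.04, adjusted p = 0.10) did not pass. The mix of cells differed at the same time: keratinocytes were 17.8% of EC-OVA cells and 34.9% of EC-SAL cells, and fibroblasts 28.0% of EC-OVA and 19.6% of EC-SAL cells. Keratinocytes supplied 40.5% of Il13ra1 UMIs in EC-OVA and 66.1% in EC-SAL, and 41.6 and 63.7% of Cish UMIs in the same groups. In these sums, fewer cells of a type and less RNA per cell cannot be told apart.

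Within the classes, 82 of the 112 pairs of a member and a class passed the filter on low counts, and 5 rose while none fell in EC-OVA. That is 6.10% of the pairs tested, beside 3.08% of all genes tested in the 14 classes pooled. Of the 5, 3 were in keratinocytes (Il4ra, Il13ra2 and Socs1), 1 in vascular endothelium (Il2rg) and 1 in macrophages with monocytes (Socs1). Il13ra1, Stat6, Jak1 and Cish passed in no class, with log2 fold changes between -0.39 and 0.18, -0.52 and 0.43, -0.57 and 0.71, and -0.29 and 1.098 in that order of genes.

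**Figure D3:**
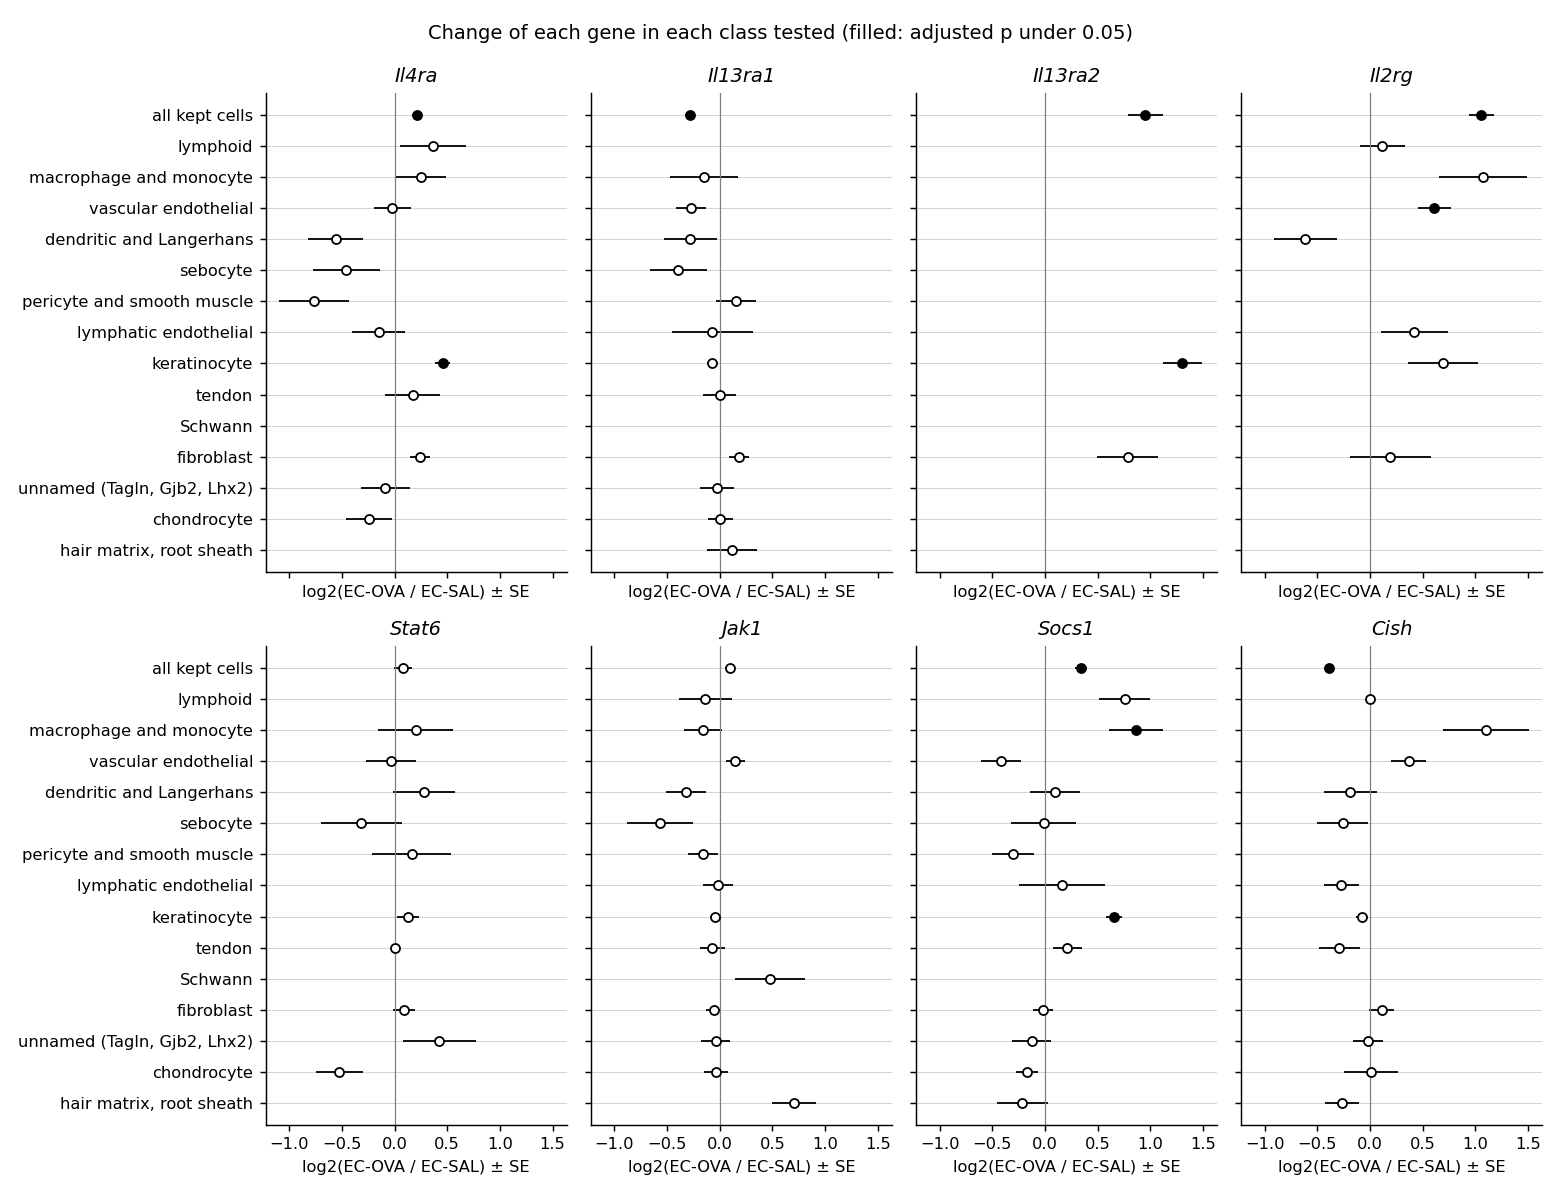
Log2 fold change of EC-OVA over EC-SAL for each member in all kept cells and in each class where it was tested. Bars are standard errors worked back from the F statistic of the edgeR test. Cish in lymphoid cells and Stat6 in tendon cells are drawn without a bar. Filled points had an adjusted p under 0.05. Filled points within classes are all right of 0, 3 of them in keratinocytes.

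In keratinocytes (1951 EC-OVA and 4703 EC-SAL cells), 3 of 8 members passed, beside 3.15% of all genes tested there. Il4ra had 31.5, 30.6 and 28.6 CPM in EC-OVA keratinocytes, against 23.1, 22.9 and 21.6 CPM in EC-SAL keratinocytes (log2 fold change 0.46 ± 0.07, edgeR adjusted p = 0.0097). Socs1 had 49.5, 49.97 and 48.8 CPM in EC-OVA and 32.9, 29.2 and 33.9 CPM in EC-SAL (0.66 ± 0.08, adjusted p = 0.0026). Il13ra2 had 9.25, 5.996 and 9.98 CPM in EC-OVA and 3.32, 3.602 and 3.51 CPM in EC-SAL (1.31 ± 0.19, adjusted p = 0.0067). In all 3 genes the groups stood apart, and EC-OVA replicate 2 was the lowest EC-OVA library for Il13ra2.

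The remaining members did not pass in keratinocytes. Il13ra1 had 91.6, 84.8 and 94.8 CPM in EC-OVA and 101.2, 96.0 and 93.7 CPM in EC-SAL, with overlap (-0.07 ± 0.05, edgeR adjusted p = 0.53). Cish had 78.6, 79.9 and 82.8 CPM in EC-OVA and 88.4, 87.3 and 84.0 CPM in EC-SAL, without overlap but with a difference that did not pass (-0.07 ± 0.06, adjusted p = 0.54). Il2rg had 4.78, 3.33 and 3.11 CPM in EC-OVA and 1.51, 3.602 and 2.07 CPM in EC-SAL, with overlap, and its estimate was larger than those of Il4ra and Socs1 but with a larger error (0.69 ± 0.33, adjusted p = 0.31). Jak1 and Stat6 also overlapped. The 2 genes that fell in all kept cells thus had estimates near 0 within keratinocytes. The summed level of 10 leukocyte-defining genes in keratinocytes was 61.7 to 73.4 CPM in EC-OVA and 52.3 to 61.1 CPM in EC-SAL, with Ptprc at 0.267 CPM in EC-OVA and 0.0746 CPM in EC-SAL, and that of 16 dissociation genes was 10121 to 10671 CPM in EC-OVA and 11303 to 11811 CPM in EC-SAL. Their part in the keratinocyte changes was not tested.

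Keratinocytes formed 6 clusters, whose mix differed between the groups. The cluster with Krt79 and Krt17, keratins of the hair follicle, among its 10 leading genes was 26.9% of EC-OVA and 18.1% of EC-SAL keratinocytes, and the cluster with Krt15 and Krt14, keratins of the basal layer, was 26.6% of EC-OVA and 37.9% of EC-SAL keratinocytes. The Krt79 and Krt17 cluster was also where 3 members were highest. Il4ra averaged 78.3 ± 2.96 CPM there in EC-OVA and 70.5 ± 5.21 CPM in EC-SAL (SD, n = 3 each), against 16.4 ± 1.32 CPM in EC-OVA and 16.6 ± 1.49 CPM in EC-SAL in the Krt15 and Krt14 cluster. Socs1 averaged 135 ± 4.40 CPM in EC-OVA and 120 ± 12.8 CPM in EC-SAL in the Krt79 and Krt17 cluster, and 24.5 ± 5.08 CPM in EC-OVA and 13.4 ± 2.26 CPM in EC-SAL in the Krt15 and Krt14 cluster. Of the Il13ra2 UMIs of keratinocytes, 136 of 157 in EC-OVA and 127 of 135 in EC-SAL came from the Krt79 and Krt17 cluster, where its level was 34.2, 23.02 and 39.3 CPM in EC-OVA and 19.9, 19.4 and 21.995 CPM in EC-SAL.

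When each keratinocyte cluster was given the same weight in every library, the changes were 0.19 ± 0.08 for Il4ra (limma adjusted p = 0.42), 0.63 ± 0.17 for Il13ra2 (adjusted p = 0.20) and 0.33 ± 0.09 for Socs1 (adjusted p = 0.20). All were positive and none passed. This fit also changed the test, from edgeR on counts to limma on log2(CPM + 1), and limma was not run at the observed mix. The part of the mix in the loss of the 3 calls therefore cannot be told apart from that of the test. In the fits of single keratinocyte clusters no member passed, and few genes of any kind did. Calls were 8 of 9377 genes in the Krt15 and Krt14 cluster and 4 of 8483 in the Krt79 and Krt17 cluster. They were 40 of 8014 in the Krt1 and Krt10 cluster and 16 of 7668 in the Sprr1b and Krt2 cluster. The Spink5 and Cdsn cluster had 0 of 4314 and the Defb6 and Klk6 cluster 1 of 3660. Among the members, Socs1 in the Krt15 and Krt14 cluster had the lowest adjusted p (0.87 ± 0.19, edgeR adjusted p = 0.16). Without the filter on low counts, Socs1 passed in that cluster (0.84 ± 0.18, adjusted p = 0.0010), as did Il2rg (1.12 ± 0.30, adjusted p = 0.030). In the cluster with Krt1 and Krt10, keratins of the differentiating layers, the estimates were 0.63 ± 0.25 for Il4ra (adjusted p = 0.34) and 0.63 ± 0.26 for Socs1 (adjusted p = 0.36), and no EC-SAL library reached the lowest EC-OVA library in either. Il13ra2 in the Krt79 and Krt17 cluster had 0.68 ± 0.19 (adjusted p = 0.52). Il13ra1 was spread otherwise: it averaged 125 ± 15.5 CPM in EC-OVA and 125 ± 3.06 CPM in EC-SAL in the Krt15 and Krt14 cluster, above the 93.3 ± 10.9 and 91.9 ± 9.42 CPM of the Krt79 and Krt17 cluster in the same groups.

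**Figure D4:**
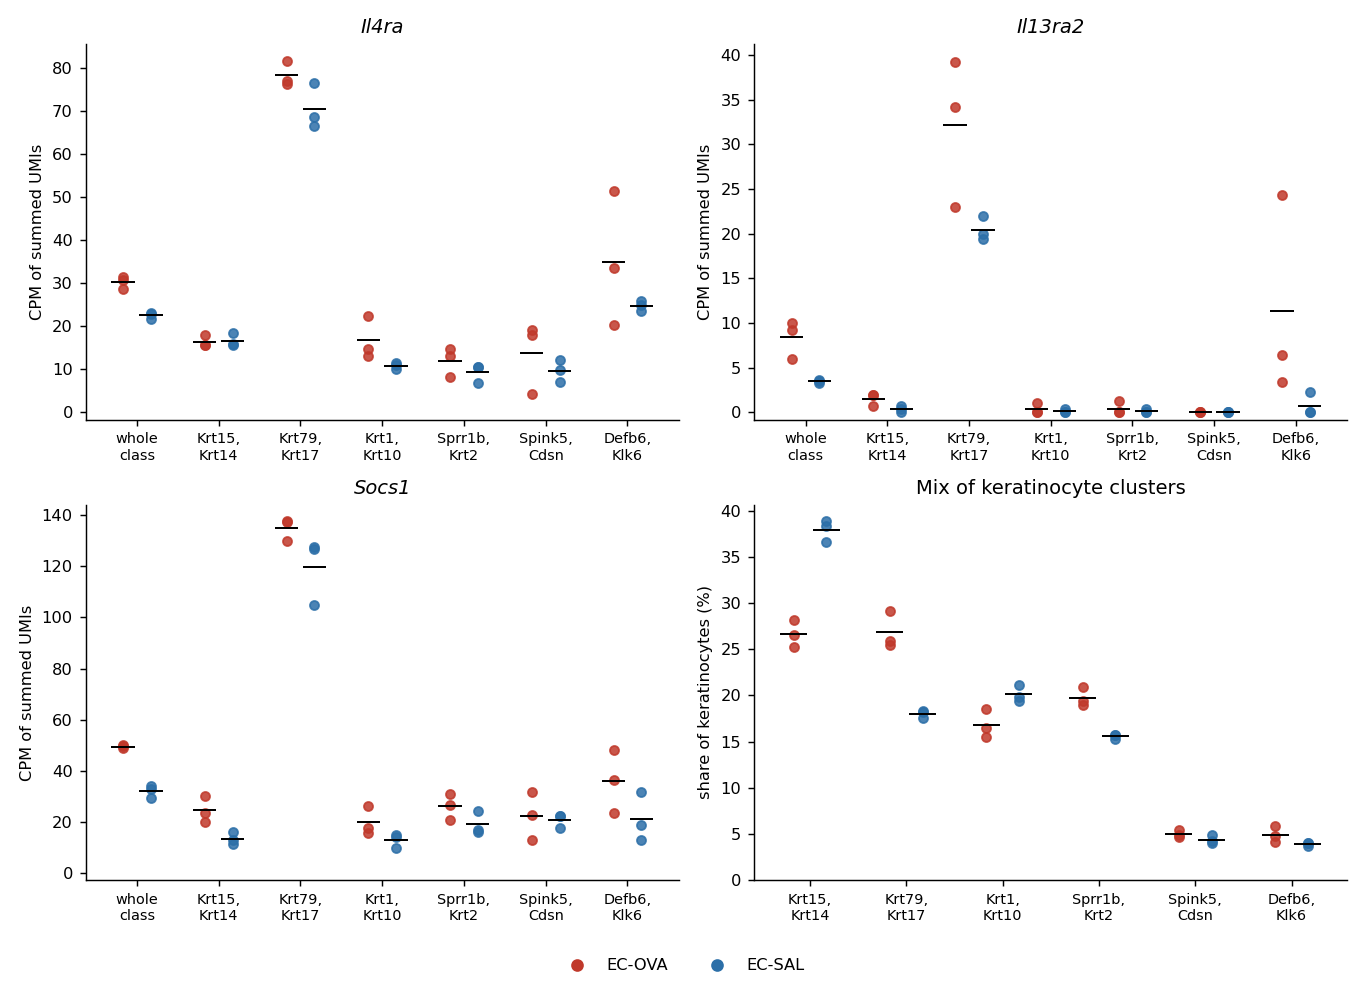
Il4ra, Il13ra2 and Socs1 in keratinocytes as a whole and in each of 6 keratinocyte clusters, named by leading genes, as CPM of summed UMIs, with the share of keratinocytes in each cluster (lower right, in percent). Each point is 1 library (red EC-OVA left, blue EC-SAL right) and bars are group means. The Krt79 and Krt17 cluster carries the highest level of all 3 genes and makes up 26.9% of EC-OVA and 18.1% of EC-SAL keratinocytes.

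Il13ra2 was higher in every EC-OVA than in every EC-SAL library also in sebocytes, pericytes and fibroblasts, the other classes where it was read. Pericytes with smooth muscle had 16.0, 16.8 and 39.7 CPM in EC-OVA and 4.63, 8.90 and 2.57 CPM in EC-SAL, from 41 UMIs in EC-OVA and 6 in EC-SAL. Sebocytes had 37.5, 36.9 and 11.4 CPM in EC-OVA and 10.3, 9.51 and 9.19 CPM in EC-SAL, from 48 UMIs in EC-OVA and 26 in EC-SAL. The counts in both classes fell under the filter of the test, so they are given as ratios of means, 4.503-fold in pericytes and 2.95-fold in sebocytes. Without the filter, edgeR gave 2.12 ± 0.55 in pericytes (adjusted p = 0.0095) and 1.55 ± 0.36 in sebocytes (adjusted p = 0.0026) on the log2 scale. The log2 ratio in pericytes was 2.17 with all libraries, 1.61 without EC-OVA replicate 3 and 2.75 without EC-SAL replicate 2. In sebocytes it was 1.56 with all libraries and 1.94 without EC-OVA replicate 3, the lowest EC-OVA library there.

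Fibroblasts (3072 EC-OVA and 2632 EC-SAL cells) had none of 8 members past the threshold, beside 7.95% of all genes tested. An unadjusted edgeR p under 0.05 was seen for 2 of the 8 members, beside 2448 of 11523 genes. Their Il13ra2 was 8.43, 4.07 and 5.94 CPM in EC-OVA and 3.103, 3.63 and 4.05 CPM in EC-SAL (0.78 ± 0.29, edgeR adjusted p = 0.14), with EC-OVA replicate 2 just above the EC-SAL libraries. Without that library the change was 0.99 (adjusted p = 0.040), and without the filter it was 0.79 (adjusted p = 0.042). Il4ra was 25.3, 24.6 and 24.8 CPM in EC-OVA fibroblasts and 22.5, 21.8 and 19.5 CPM in EC-SAL fibroblasts, without overlap (0.24 ± 0.09, adjusted p = 0.16).

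**Figure D5:**
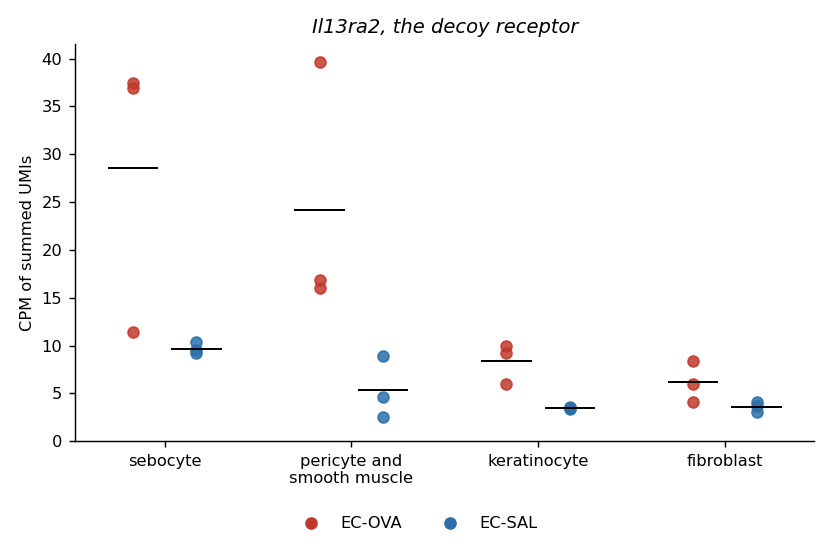
Il13ra2, the decoy receptor, in the 4 classes where it was read, as CPM of summed UMIs. Each point is 1 library (red EC-OVA left, blue EC-SAL right) and bars are group means. In each class all 3 EC-OVA libraries lie above all 3 EC-SAL libraries, by the least in fibroblasts (4.07 CPM in EC-OVA replicate 2, 4.05 CPM in EC-SAL replicate 3).

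Among 18 clusters and 5 finer leukocyte types with enough cells, 1 of 105 pairs tested passed, beside 1.6% of all genes. This was Socs1 in the fibroblast cluster led by Lrrc15, at 59.6, 36.2 and 44.5 CPM in EC-OVA and 26.7, 17.6 and 36.0 CPM in EC-SAL (0.82 ± 0.22, edgeR adjusted p = 0.047). The lowest EC-OVA library was just above the highest EC-SAL library. The call was lost without EC-OVA replicate 1 (0.62, adjusted p = 0.13), EC-OVA replicate 3 (0.87, adjusted p = 0.095), EC-SAL replicate 1 (0.79, adjusted p = 0.14) or EC-SAL replicate 2 (0.63, adjusted p = 0.19).

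In vascular endothelium (784 EC-OVA and 729 EC-SAL cells), Il2rg was the 1 member of 7 tested that passed, beside 3.43% of all genes. It had 64.7, 49.3 and 59.6 CPM in EC-OVA, against 39.4, 36.8 and 35.1 CPM in EC-SAL (0.61 ± 0.15, edgeR adjusted p = 0.045), without overlap. The share of cells with a UMI was 23.3 ± 3.52% in EC-OVA and 12.9 ± 1.58% in EC-SAL, and 5.06 ± 0.287% and 2.66 ± 0.919% in the same groups after thinning. The adjusted p was 0.11 with the 2 vascular clusters at the same weights in every library (0.55, limma), 0.33 by DESeq2 and 0.062 with at least 500 genes per cell. It was 0.025 without EC-OVA replicate 2 and between 0.11 and 0.16 without any of the other 5 libraries. In the cluster led by Selp and Ackr1, Il2rg was 68.0, 68.7 and 85.9 CPM in EC-OVA and 53.6, 46.2 and 27.3 CPM in EC-SAL (0.71 ± 0.23, edgeR adjusted p = 0.16). That cluster was 48.6% of the EC-OVA and 32.2% of the EC-SAL cells of the class. In the other vascular cluster the change of Il2rg was 0.23 ± 0.27 (edgeR adjusted p = 0.86). The fit at the same weights also changed the test to limma, so the part of the mix alone was not tested.

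Leukocyte RNA was read beside the rise of Il2rg. Of the 10 leukocyte-defining genes, 3 passed the filter in vascular endothelium, and 0 of these rose or fell past the threshold. The summed level of 10 leukocyte-defining genes in vascular endothelium was 47.5 to 74.0 CPM in EC-OVA and 34.1 to 35.7 CPM in EC-SAL, with all 10 detected and Ptprc at 0.651 CPM in EC-OVA and 0 in EC-SAL. Ptprc, which encodes the pan-leukocyte protein CD45, averaged 341 CPM in lymphoid cells of EC-OVA and 310 CPM in those of EC-SAL. The part of leukocyte RNA in the change of Il2rg was not tested.

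The other members of vascular endothelium did not pass. Il4ra was 65.9, 75.2 and 65.9 CPM in EC-OVA and 73.2, 50.3 and 86.6 CPM in EC-SAL (-0.02 ± 0.17, edgeR adjusted p = 0.98), with EC-SAL libraries below, within and above the EC-OVA range. Cish was 49.4, 63.5 and 62.4 CPM in EC-OVA and 42.2, 41.3 and 51.5 CPM in EC-SAL (0.37 ± 0.16, adjusted p = 0.32), and in the Selp and Ackr1 cluster it averaged 64.9 ± 9.35 CPM in EC-OVA and 32.5 ± 3.80 CPM in EC-SAL (0.93 ± 0.24, adjusted p = 0.061). Socs1 was 58.9, 38.2 and 39.3 CPM in EC-OVA and 48.8, 68.3 and 63.2 CPM in EC-SAL (-0.42 ± 0.19, adjusted p = 0.32). The 2 inhibitors thus had estimates of opposite sign in this class.

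In macrophages with monocytes (769 EC-OVA and 507 EC-SAL cells), Socs1 was the 1 of 7 members tested that passed, beside 8.27% of all genes. It had 105, 70.1 and 113 CPM in EC-OVA and 47.8, 61.3 and 46.7 CPM in EC-SAL (0.86 ± 0.25, edgeR adjusted p = 0.041), without overlap. The call was lost by DESeq2 (adjusted p = 0.25), at a mitochondrial limit of 10% (0.073), with at least 500 genes per cell (0.12) and without any 1 library other than EC-OVA replicate 2 (0.073 to 0.18). Il2rg was 39.4, 40.3 and 34.0 CPM in EC-OVA and 6.38, 26.8 and 21.6 CPM in EC-SAL (1.07 ± 0.42, adjusted p = 0.14), again without overlap. Cish was 52.5, 48.8 and 29.4 CPM in EC-OVA and 9.57, 22.999 and 28.8 CPM in EC-SAL (1.098 ± 0.41, adjusted p = 0.12). Il4ra overlapped, at 85.3, 82.8 and 83.8 CPM in EC-OVA and 47.8, 84.3 and 79.1 CPM in EC-SAL.

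The make-up of this class differed between the groups. Finer typing gave 199 monocyte-like cells in EC-OVA and 20 in EC-SAL, and 405 macrophage-like cells in EC-OVA and 346 in EC-SAL. Monocyte-like cells had 62 UMIs of Socs1 in EC-OVA, or 132 CPM, and 1 UMI in EC-SAL. They were not tested, for want of cells in EC-SAL. In macrophage-like cells Socs1 averaged 60.5 CPM in EC-OVA and 61.8 CPM in EC-SAL, and Il4ra 82.9 CPM in EC-OVA and 84.3 CPM in EC-SAL. Genes of tissue dissociation were lower in the EC-OVA class, at 6028 to 6917 CPM in EC-OVA and 8467 to 9916 CPM in EC-SAL over 16 genes. Their part in the change of Socs1 was not tested.

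Lymphoid cells (264 EC-OVA and 152 EC-SAL) were high in both groups for the type I chains. Il2rg was 259, 309 and 252 CPM in EC-OVA and 251.4, 274 and 247 CPM in EC-SAL (0.12 ± 0.21, edgeR adjusted p = 0.94), and Il4ra was 94.3, 96.5 and 116 CPM in EC-OVA and 99.2, 50.8 and 82.2 CPM in EC-SAL (0.36 ± 0.31, adjusted p = 0.81). Both overlapped. Socs1 did not overlap, at 245, 222 and 310 CPM in EC-OVA and 172, 173 and 113 CPM in EC-SAL, and did not pass (0.76 ± 0.24, adjusted p = 0.18).

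Dendritic with Langerhans cells (477 EC-OVA and 252 EC-SAL) had Il4ra at 41.3, 37.0 and 35.8 CPM in EC-OVA and 68.8, 36.6 and 57.9 CPM in EC-SAL (-0.56 ± 0.26, edgeR adjusted p = 0.21), with 1 EC-SAL library inside the EC-OVA range. The estimate was 0.13 (limma adjusted p = 0.92) in the largest cluster alone, the only cluster of the class with at least 10 cells in every library. That fit left out the cluster led by Cd207. With all clusters, the estimate was -1.14 with doublets kept (edgeR adjusted p = 0.041) and -1.40 at a mitochondrial limit of 10% (adjusted p = 0.018). With at least 500 genes per cell it was -1.35 (adjusted p = 0.027). The cluster led by Cd207, the defining marker of Langerhans cells, with Il4ra at 52.2 ± 48.3 CPM in EC-OVA and 91.6 ± 31.6 CPM in EC-SAL, was 3.98% of the EC-OVA and 20.2% of the EC-SAL cells of the class. In the cluster that held 69.2% of the EC-OVA and 67.5% of the EC-SAL cells Il4ra averaged 45.3 ± 8.61 CPM in EC-OVA and 44.5 ± 19.9 CPM in EC-SAL.

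The cytokines themselves were read mostly from few cells. In EC-OVA, 78 of 86 UMIs of Il4 and 257 UMIs of Il13 (65.6%) came from 45 basophil-like cells, and 125 (31.9%) came from lymphoid cells. In EC-SAL there were 0 UMIs of Il4 and 17 of Il13, of which 14 were in lymphoid cells, and 1 basophil-like cell. Il13 rose in all kept cells (4.67 ± 0.82, edgeR adjusted p = 0.0022) and in lymphoid cells (2.34 ± 0.54, adjusted p = 0.028), where 1.54% of all genes were called. The make-up of the lymphoid cells differed between the groups: regulatory-T-like cells numbered 56 in EC-OVA and 13 in EC-SAL, CD4-T-like cells 46 in EC-OVA and 12 in EC-SAL, and NK-like cells 26 in EC-OVA and 3 in EC-SAL. Dermal gamma-delta-T-like cells numbered 49 in EC-OVA and 45 in EC-SAL. The part of this make-up in the rise of Il13 was not tested.

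The basophil-like cells held no UMI of Il4ra or Il13ra1 in 46 cells, which allows up to 7.71% of cells (exact 95% bound) at a median of 1416 UMIs per cell in EC-OVA. They did hold the feedback genes, with Cish at 314, 551 and 650 CPM and Socs1 at 157, 276 and 650 CPM in the 3 EC-OVA libraries, and Il2rg at 105, 165 and 139 CPM from 11 UMIs. Neutrophil-like cells (64 in EC-OVA and 3 in EC-SAL) held 9 UMIs of Il13ra1, 6 of Il2rg and 1 of Il4ra. Neither type had the cells for a test.

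Other genes of the pathway were read from the same fits. In all kept cells the median log2 fold change of all genes was -0.00. Of the other Janus kinases and STAT factors, 7 of 9 rose and none fell (median 0.51), with Stat4 at 1.43 ± 0.31 (edgeR adjusted p = 0.0068) and Jak2 at 0.72 ± 0.06 (adjusted p = 4.7e-05). Of the other common gamma chain and TSLP receptor chains, all 6 tested rose (median 0.95), with Il2ra at 1.05 ± 0.21 (adjusted p = 0.0045). Of the other SOCS and PIAS inhibitors, 3 of 10 rose and 1 fell (median -0.07), and of 9 adaptors and phosphatases 2 rose and 1 fell (median 0.06). The share called in these last 2 lists was below the 44.8% of all genes. Of 24 genes known to respond to IL-4 or IL-13, 17 rose and 2 fell (median 1.04), led by Chil3 at 3.57 ± 0.76 (adjusted p = 0.0059). Leukocyte-defining genes rose in 10 of 10 cases (median 1.33), keratinocyte-defining genes fell in 8 of 8 (median -0.80), and of 16 dissociation genes 2 rose and 8 fell (median -0.14).

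Within classes the counts were lower. In keratinocytes, 3 of 10 response genes tested rose and none fell (median 0.22, all genes 0.01), beside 3.15% of all genes called in either direction. Ccl8, an eosinophil and monocyte chemokine, rose by 2.02 ± 0.31 (edgeR adjusted p = 0.0099). Il24, a cytokine of the IL-20 family, rose by 1.39 ± 0.10 (adjusted p = 0.00050) and Timp1, a protease inhibitor, by 1.05 ± 0.18 (adjusted p = 0.013). Ccl8 is also among the 10 leading genes of the macrophage cluster. Of 4 leukocyte-defining genes tested in keratinocytes 1 rose, Tyrobp by 1.58 ± 0.26 (adjusted p = 0.013). The part of leukocyte RNA in these changes was not tested. Socs5, an inhibitor reported to act on the IL-4 receptor, rose by 0.89 ± 0.17 (adjusted p = 0.023), the 1 of 10 inhibitors to do so, and none of the 7 other kinases and STAT factors tested passed.

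In macrophages with monocytes, 4 of 11 response genes rose and 2 fell (median 0.19), beside 8.27% of all genes called in either direction. Arg1, the arginase of alternatively activated macrophages, rose by 8.16 ± 0.82 (edgeR adjusted p = 8.3e-06), while Retnla, another gene of that state, fell by 2.39 on the log2 scale (SE 0.67, adjusted p = 0.030). Jak2 rose there by 1.12 ± 0.29 (adjusted p = 0.022). The make-up of that class differed as well. Monocyte-like cells numbered 199 in EC-OVA and 20 in EC-SAL, and macrophage-like cells 405 in EC-OVA and 346 in EC-SAL. The part of the make-up in these changes was not tested. In fibroblasts, 5 of 10 response genes rose and 1 fell (median 0.45), beside 7.95% of all genes called in either direction. Tnc, the matrix protein tenascin C, rose by 1.37 ± 0.09 (edgeR adjusted p = 7.0e-06) and Ccl8 by 1.21 ± 0.16 (adjusted p = 0.00072). Jak2 rose by 0.47 ± 0.10 (adjusted p = 0.013). Ccl8 is also among the 10 leading genes of the macrophage cluster. The 10 leukocyte-defining genes summed to 60.4 to 66.7 CPM in EC-OVA fibroblasts and 49.6 to 56.3 CPM in EC-SAL fibroblasts, all 10 were detected, Ptprc was at 0.297 CPM in EC-OVA and 0.138 CPM in EC-SAL, and Fcer1g rose by 1.49 ± 0.38 (adjusted p = 0.036). The part of leukocyte RNA in these changes was not tested. In pericytes, 3 of 8 rose and 2 fell (median 0.49), beside 3.55% of all genes called in either direction, with Postn, the matrix protein periostin, at 1.499 ± 0.13 (adjusted p = 2.4e-07).

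In vascular endothelium, 2 of 10 response genes rose and 2 fell (median 0.65), beside 3.43% of all genes called in either direction. Vcam1, a leukocyte adhesion molecule, had 1.08 ± 0.19 (edgeR adjusted p = 0.0048) and Ccl11, the chemokine eotaxin, -1.92 ± 0.49 (adjusted p = 0.046). Serpinb2, on the response list, fell in vascular endothelium (-1.86 ± 0.21, adjusted p = 0.00014), fibroblasts (-1.59 ± 0.24, adjusted p = 0.0019) and pericytes (-1.95 ± 0.32, adjusted p = 0.00079). It is also among the 10 leading genes of the Krt15 and Krt14 cluster and the Krt1 and Krt10 cluster of keratinocytes. The summed level of 8 keratinocyte genes in vascular endothelium was 226 to 278 CPM in EC-OVA and 768 to 1554 CPM in EC-SAL, and in fibroblasts 353 to 450 CPM in EC-OVA and 872 to 1106 CPM in EC-SAL. The part of keratinocyte RNA in the fall of Serpinb2 was not tested.

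In dendritic with Langerhans cells, where 11.1% of all genes were called, 2 of 8 response genes rose, Clec10a, a lectin of type 2 dendritic cells, by 1.93 ± 0.32 (edgeR adjusted p = 0.0017) and Batf3, a factor of type 1 dendritic cells, by 1.54 ± 0.26 (adjusted p = 0.0019). The receptor chains Il7r (-0.84 ± 0.20, adjusted p = 0.014) and Crlf2 (-0.65 ± 0.14, adjusted p = 0.0085), which together bind TSLP, fell in that class. Its make-up also differed: finer typing gave 120 type 1 conventional dendritic-like cells in EC-OVA and 34 in EC-SAL, and 29 Langerhans-like cells in EC-OVA and 51 in EC-SAL. The part of the make-up in these changes was not tested.

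Whether a change in a class differed from the change in all other cells was tested by the interaction of class and treatment, with the library as a block. Of 112 pairs, 12 passed, 5 with the class higher and 7 with the class lower than the change elsewhere. That is 10.7%, beside 5.66% of all genes in the 14 classes pooled. The all-other-cells sum itself changes in its mix of cells between the groups.

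In keratinocytes, where 8.31% of all genes passed this test, Socs1 (0.51 ± 0.09, edgeR adjusted p = 0.00023) and Jak1 (-0.25 ± 0.06, adjusted p = 0.0069) did. In the other cells Socs1 averaged 84.4 CPM in EC-OVA and 80.6 CPM in EC-SAL. Il4ra (0.24 ± 0.10, adjusted p = 0.18) and Il13ra2 (0.11 ± 0.27, adjusted p = 0.88) did not, so no difference of their rise from that elsewhere was shown. In fibroblasts, where 19.6% of all genes and 3 members passed, Il13ra1 was relatively higher (0.42 ± 0.10, adjusted p = 0.0032) and Socs1 relatively lower (-0.46 ± 0.09, adjusted p = 0.00034). In vascular endothelium, where 7.81% of all genes passed, Cish was relatively higher (0.77 ± 0.16, adjusted p = 0.00014) and Socs1 relatively lower (-0.83 ± 0.16, adjusted p = 3.9e-05).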

How the data were processed

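Droplet 3′ libraries of skin cells from 3 EC-OVA and 3 EC-SAL samples were analysed. The deposited values are whole UMI counts per gene and barcode, made by the authors with Cell Ranger 3.1.0, which aligns with STAR, on mm10, per the submitters' processing notes; the lowest barcode held 500 UMIs. Cells had to have at least 300 genes and at most 15% of UMIs from mitochondrial genes. Of the rest, Scrublet scores removed the top 0.8% per 1000 barcodes, since Scrublet's own threshold marked only 0.0375 to 0.234%. In all, 33.1 to 35.0% of EC-OVA and 36.5 to 39.4% of EC-SAL barcodes were left out. Cells were clustered with scanpy 1.11.5 (Python 3.11.15, scipy 1.17.1, leidenalg 0.10.2) on 2000 variable genes without the members, 40 components, 20 neighbours and a resolution of 1.0; macrophages, dendritic and lymphoid cells were clustered again for finer types. A class was named where at least 3 of its markers were raised.

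Counts were summed per library and class and tested by edgeR 4.0.16 (R 4.3.3) quasi-likelihood fits with filterByExpr, TMM scaling and Benjamini-Hochberg adjustment over all genes of a fit at 0.05. The SE of an edgeR change is its absolute log2 fold change divided by the square root of the F statistic of the test. DESeq2 1.42.0, limma 3.58.1 for the same cluster mix in every library, other filters, clustering settings and each library left out were alternatives. The same-mix alternative used only clusters with at least 10 cells in every library, weighted by their share of cells over all libraries. The fits were tested on simulated data with known changes. Shares of cells were compared by exact permutation of libraries, also after thinning to 1000 UMIs per cell. Genes named are the 8 members, the ligands Il4 and Il13, up to 4 genes with the largest change past the threshold per list and class, and the 3 genes most like each receptor chain. The lists were type 2 ligands, other kinases and STAT factors, adaptors and phosphatases, SOCS and PIAS inhibitors, common gamma chain and TSLP receptor chains, response genes, and leukocyte, keratinocyte and dissociation genes. Members and lists were chosen with earlier results of these data known. Promoters came from RefSeq (GRCm38.p6), matched by symbol for all 8 members.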

Additional observations from a re-analysis of the deposited data

Results flagged for a closer look

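The changes of EC-OVA over EC-SAL in a class differed from those in all other kept cells for 12 pairs of a member and a class, by the interaction of class and treatment (edgeR adjusted p under 0.05). The values are log2 differences of the 2 changes with their SE, followed by mean CPM of the class. Mean CPM of all other kept cells is given as well, and those cells also differ in their mix between the groups.

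Socs1 was flagged by this test in 4 classes. In keratinocytes the difference was 0.51 ± 0.09 (edgeR adjusted p = 0.00023), with 49.4 CPM in EC-OVA and 32.0 CPM in EC-SAL. It was -0.46 ± 0.09 in fibroblasts (edgeR adjusted p = 0.00034), with 82.3 CPM in EC-OVA and 84.1 CPM in EC-SAL. In chondrocytes it was -0.56 ± 0.09 (edgeR adjusted p = 1.9e-05), with 203 and 231 CPM in the same groups. In vascular endothelium it was -0.83 ± 0.16 (edgeR adjusted p = 3.9e-05), with 45.5 CPM in EC-OVA and 60.1 CPM in EC-SAL. Socs1 in the other cells averaged 84.4 CPM in EC-OVA and 80.6 CPM in EC-SAL beside keratinocytes. In the same groups it averaged 71.4 and 51.1 CPM beside fibroblasts, 66.0 and 48.7 CPM beside chondrocytes, and 76.7 and 56.3 CPM beside vascular endothelium.

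Cish differed in vascular endothelium by 0.77 ± 0.16 (edgeR adjusted p = 0.00014; 58.5 CPM in EC-OVA and 45.0 CPM in EC-SAL), in macrophages with monocytes by 1.51 ± 0.39 (adjusted p = 0.0046; 43.6 CPM in EC-OVA and 20.4 CPM in EC-SAL) and in the unnamed cluster led by Tagln, Gjb2 and Lhx2 by 0.37 ± 0.12 (adjusted p = 0.030; 150 CPM in EC-OVA and 154 CPM in EC-SAL). Cish in the other cells averaged 53.3 CPM in EC-OVA and 68.4 CPM in EC-SAL beside vascular endothelium. In the same groups it averaged 53.8 and 68.0 CPM beside macrophages, and 49.3 and 63.1 CPM beside the unnamed cluster. Without EC-SAL replicate 1 the value in macrophages was 1.16 (edgeR adjusted p = 0.12). The call in the unnamed cluster was lost with DESeq2 size factors (adjusted p = 0.067), without the filter on low counts (0.090), and without EC-OVA replicate 2 (0.26, adjusted p = 0.41), EC-OVA replicate 3 (0.37, adjusted p = 0.11) or EC-SAL replicate 1 (0.24, adjusted p = 0.43).

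Jak1 differed in keratinocytes by -0.25 ± 0.06 (edgeR adjusted p = 0.0069; 109 CPM in EC-OVA and 114 CPM in EC-SAL), in fibroblasts by -0.20 ± 0.07 (adjusted p = 0.048; 149 and 157 CPM in the same groups) and in sebocytes by -0.74 ± 0.22 (adjusted p = 0.029; 39.99 CPM in EC-OVA and 62.3 CPM in EC-SAL). The call in fibroblasts was lost without the filter (adjusted p = 0.078) and without any 1 library other than EC-OVA replicate 3; with 1 library left out the value lay between -0.26 and -0.11, the smaller without EC-OVA replicate 1 (adjusted p = 0.36). The call in sebocytes was lost without the filter (adjusted p = 0.055), and without EC-OVA replicate 2 (-0.73, adjusted p = 0.072), EC-OVA replicate 3 (-0.35, adjusted p = 0.73), EC-SAL replicate 2 (-0.70, adjusted p = 0.12) or EC-SAL replicate 3 (-0.51, adjusted p = 0.52). Without EC-OVA replicate 1 the sebocyte value was -1.33 (edgeR adjusted p = 0.00036). Jak1 in the other cells averaged 157 CPM in EC-OVA and 144 CPM in EC-SAL beside keratinocytes. In the same groups it averaged 141 and 124 CPM beside fibroblasts, and 146 and 131 CPM beside sebocytes.

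Among the receptor chains, Il13ra1 differed in fibroblasts by 0.42 ± 0.10 (edgeR adjusted p = 0.0032), with 45.2 CPM in EC-OVA and 40.1 CPM in EC-SAL. The other cells had 69.3 CPM of Il13ra1 in EC-OVA and 79.1 CPM in EC-SAL. Il2rg differed in dendritic with Langerhans cells by -1.73 ± 0.41 (edgeR adjusted p = 0.0010), with 25.7 CPM in EC-OVA and 38.2 CPM in EC-SAL. The other cells had 11.2 CPM of Il2rg in EC-OVA and 4.97 CPM in EC-SAL. Without EC-OVA replicate 2 the difference of Il2rg was -1.4999 (edgeR adjusted p = 0.052).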

How the results depend on the processing

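The count of 6 members past the threshold in all kept cells was 6 in all 7 alternatives and with each library left out. The 5 calls within classes became 8 without the filter and 3 by DESeq2, and 3 to 6 with 1 library left out. With the same cluster mix in every library 1 was counted, Socs1 in macrophages with monocytes, a class of a single cluster that was not refitted. The calls that were refitted there, in keratinocytes and vascular endothelium, were lost. The other 6 alternatives gave counts within 1.5 times. The single call in a cluster became 4 without the filter, and 0 to 1 with 1 library left out. The 12 differences between a class and the other cells numbered 12 under both alternatives, of which 11 were shared with DESeq2 size factors and 9 without the filter, and 8 to 11 with 1 library left out. Cish in the unnamed cluster was lost under both, and Jak1 in fibroblasts and sebocytes without the filter. In the same-mix alternative, Il4ra in dendritic with Langerhans cells turned to 0.13 (limma adjusted p = 0.92). That fit held only the largest cluster of the class, and the cause was not tested. The 3 calls in keratinocytes were lost with the same-mix alternative only, which also changed the test from edgeR to limma. With the replicate block, calls numbered 6 in all kept cells, 5 within classes and 2 in clusters; same-numbered libraries correlated at -0.080 to 0.159, in no class all over 0.1, so the numbers are not taken to pair samples. Every library correlated best with its own number only in macrophages with monocytes. Allowing members among the variable genes was not run for the classes, since none of the 8 was among them. Counts of a few UMIs limit Il13ra2 outside keratinocytes and fibroblasts, and shares of cells with both chains at equal depth.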
